A study of Homo sapiens with 12 samples.

Results

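MHC class I and class I-like genes were followed in human cells that had lost their mitochondrial DNA (mtDNA). The set held 9 genes, namely FCGRT, HFE, B2M, TAPBP and the HLA class I genes HLA-B, HLA-C, HLA-E, HLA-F and HLA-G. All probe sets that the array annotation gives to these symbols were taken, which were 35 of the 22283 on the Affymetrix array, and each of the 35 was listed with 1 gene. The genes were chosen by a rule written with their ρ° against ρ+ signals in both lines in view, so these values are given as a description, without p-values.

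A549 ρ° cells and 143BTK- ρ° cells were set against the parental A549 ρ+ cells and 143BTK- ρ+ cells. A549 is an epithelial line from a lung adenocarcinoma, and 143BTK- is an osteosarcoma line that lacks thymidine kinase. The ρ° cells had been kept for 3 weeks in 50 ng/ml ethidium bromide, which stops mtDNA replication, and were used as a mixed population rather than as clones. The ρ+ cells had not been through the drug, so that loss of mtDNA and earlier exposure to ethidium bromide cannot be told apart. All cells had 10% serum, 1 mM pyruvate and 50 µg/ml uridine in the medium. Each group had 3 arrays (A, B and C), 12 in all, each from 12 µg of total RNA of its own extraction, and the precision of every value is limited by these 3 arrays. RNA came from bulk cultures, in which a lower level per cell and fewer cells that express a gene cannot be told apart. No separate derivations of ρ° cells are described, so p-values measure the spread between these extractions.

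MHC class I molecules show peptides from inside the cell to T cells. A polymorphic or conserved heavy chain, encoded by the HLA class I genes, is held together with the small light chain β2-microglobulin, encoded by B2M, and a peptide is loaded in the endoplasmic reticulum with the help of tapasin, encoded by TAPBP. HFE and FCGRT encode heavy chains of the same fold that also pair with β2-microglobulin but present no peptide: HFE binds the transferrin receptor and takes part in iron sensing, and FCGRT is the neonatal Fc receptor, which returns IgG and albumin from endosomes to the cell surface.

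In A549 all 31 member probe sets that passed the filter on dim signals had a higher mean log2 signal in ρ° than in ρ+ cells, led by FCGRT and by single probe sets of HLA-G, HFE and HLA-E. In 143BTK- the same direction was seen for 24 of 31, and FCGRT, HFE and B2M were the members with a probe set whose ρ° arrays all lay above the ρ+ arrays. With no filter the counts were 33 of 35 in A549 and 27 of 35 in 143BTK-. Some kept probe sets passed through their ρ° arrays, with a ρ+ mean log2 signal under the limit. These were HFE 211326_x_at and 211863_x_at in A549, and FCGRT and HLA-F 221978_at in 143BTK-. Of all probe sets kept, 49.7% were higher in ρ° cells in each line. Of the HLA heavy chain probe sets, all 16 kept were higher in A549 ρ° cells. In 143BTK- 11 of 17 were higher and 6 lower, and 4 of 17 were higher without the ρ° B array. None of the 17 was free of overlap between the groups. Of all 143BTK- probe sets, 7.36% had every ρ° array above the ρ+ arrays and 7.47% had every one below. No member was called in the test of the difference between the lines, beside 1.03% of all probe sets called higher and 0.878% lower.

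Promoter sequences were read from RefSeq (GRCh38.p14), from 250 bases before to 50 after the gene start. They are shown so that members with like and unlike changes can be set side by side. Of the 9 genes 8 had at least 1 window, and HLA-E had none in the table used. Searched on both strands were GAAA followed after 2 bases by a second GAAA, as in an interferon-stimulated response element, which 3.57% of all 35116 windows held, CCAAT, which 34.6% held, and TGACGC, the core of the X2 box of class I promoters, which 9.14% held. Capitals mark any match, and neighbouring capitals may be overlapping matches. Of the 5 windows printed, those of FCGRT, HFE and B2M stand for the members with a probe set free of overlap in both lines. The others stand for a member with 3 probe sets higher in A549 and lower in 143BTK- (HLA-C) and for that with the largest HLA change in A549 (HLA-G).
FCGRT, chr19:49512411-49512710, plus strand: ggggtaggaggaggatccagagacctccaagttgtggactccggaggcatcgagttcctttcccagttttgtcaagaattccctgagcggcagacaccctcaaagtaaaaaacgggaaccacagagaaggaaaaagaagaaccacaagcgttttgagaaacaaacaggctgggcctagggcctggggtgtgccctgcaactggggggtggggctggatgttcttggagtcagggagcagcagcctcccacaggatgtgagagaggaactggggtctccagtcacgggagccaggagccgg
HFE, chr6:26087179-26087478, plus strand: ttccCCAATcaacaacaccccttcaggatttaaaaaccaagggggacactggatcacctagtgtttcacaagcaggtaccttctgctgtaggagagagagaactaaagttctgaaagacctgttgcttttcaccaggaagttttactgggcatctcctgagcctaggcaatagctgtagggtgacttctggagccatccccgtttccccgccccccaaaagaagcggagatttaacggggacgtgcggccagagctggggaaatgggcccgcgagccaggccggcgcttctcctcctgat
B2M, chr15:44711267-44711566, plus strand: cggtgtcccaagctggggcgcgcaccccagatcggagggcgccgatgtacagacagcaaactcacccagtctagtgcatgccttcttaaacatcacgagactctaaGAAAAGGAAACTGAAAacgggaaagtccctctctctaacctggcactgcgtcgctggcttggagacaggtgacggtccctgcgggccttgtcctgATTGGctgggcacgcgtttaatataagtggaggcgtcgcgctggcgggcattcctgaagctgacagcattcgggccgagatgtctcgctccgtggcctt
HLA-C, chr6:31272043-31272342, minus strand: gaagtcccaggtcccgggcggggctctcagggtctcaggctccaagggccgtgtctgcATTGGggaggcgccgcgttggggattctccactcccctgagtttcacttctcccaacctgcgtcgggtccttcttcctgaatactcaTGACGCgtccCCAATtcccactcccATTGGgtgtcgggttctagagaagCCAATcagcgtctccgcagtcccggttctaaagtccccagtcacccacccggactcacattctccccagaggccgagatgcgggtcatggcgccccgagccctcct
HLA-G, chr6:29827575-29827874, plus strand: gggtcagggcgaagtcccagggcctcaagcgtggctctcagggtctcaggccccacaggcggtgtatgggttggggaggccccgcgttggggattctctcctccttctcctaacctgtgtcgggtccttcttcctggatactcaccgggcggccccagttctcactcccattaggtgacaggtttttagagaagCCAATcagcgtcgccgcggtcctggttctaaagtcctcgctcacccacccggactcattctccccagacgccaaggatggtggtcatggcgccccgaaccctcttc

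The FCGRT window held none of the 3 patterns, and that of HFE held 1 CCAAT, at its far end from the start. B2M held 2 overlapping GAAA pairs and 1 CCAAT, and TAPBP, not printed, also held 2 overlapping GAAA pairs. HLA-C held 4 CCAAT and 1 TGACGC, HLA-B 3 CCAAT and 1 TGACGC, and HLA-F 1 GAAA pair and 2 CCAAT. HLA-G has 3 windows in the table, of which the one printed held 1 CCAAT and the others held no match. A match is a run of letters and not a site known to be bound in these cells. The search took exact letters only, with patterns chosen after the data were at hand. The lack of a GAAA pair, as in HLA-B and HLA-C, therefore does not show that a window lacks an interferon-stimulated response element.

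The values are MAS5 signals, a brightness per probe set on a linear scale, which the authors quantile-normalized over the 6 arrays of each line. Levels are therefore compared within a probe set and within a line only. Probe sets were kept where their mean signal was at least 18.9 in A549 and 12.5 in 143BTK-, the lowest means kept. Between arrays of a group, r across probe sets was 0.899 to 0.964. As a check of the lines, 5 of 6 epithelial markers were kept in A549, all but EPCAM, and of the mesenchymal ones VIM, COL1A1, COL1A2 and CDH2 were kept there too. In 143BTK- the mesenchymal genes VIM, SPARC, CDH2 and COL1A1 were kept, but COL1A2 and the bone genes RUNX2 and ALPL were not, and the epithelial markers KRT8, KRT18, KRT7 and EPCAM were kept, with KRT18 at a mean of 3525 in ρ° and 4570 in ρ+ cells. Group means of the 9 blood cell markers on the array lay between 1.63 and 59.9 in A549 and between 0.667 and 32.1 in 143BTK-. Transcripts encoded by the mtDNA itself were not analysed here.

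FCGRT, read by a single probe set, had the largest log2 change among the members in A549. Its signal was 276.3, 275.9 and 170.6 in A549 ρ° cells, against 75, 61.9 and 61.8 in A549 ρ+ cells, 3.57-fold higher (log2 change 1.83 ± 0.25, SE). In 143BTK- it was 26, 55.2 and 28.7 in ρ° cells, against 17.1, 6.4 and 17.4 in ρ+ cells, a log2 change of 1.48 ± 0.50 (SE). In both lines every ρ° array lay above every ρ+ array. The 143BTK- ρ+ mean, taken on the log2 scale, was just under the lowest mean kept in that line, so that no fold is given there. The size of the change moved with the array: without ρ° B it was 1.00.

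HFE had 13 probe sets, most of them dim, with array signals between 3.4 and 102.2 in A549 and between 1.9 and 56.5 in 143BTK-. The probe set of highest mean log2 signal over the 12 arrays, 206087_x_at, whose place rests on its ρ° arrays and does not hold in each line alone, read 102.2, 80.7 and 100.4 in A549 ρ° cells, against 23.6, 58.3 and 61 in A549 ρ+ cells (log2 change 1.10 ± 0.36, SE). In 143BTK- it read 52.2, 26.8 and 56.5 in ρ° cells, against 17.4, 22.7 and 19.9 in ρ+ cells (1.11 ± 0.37, SE), so that the groups were apart in both lines. With an array left out the change ran from 0.66 to 1.34 in A549, the lowest being without ρ+ A, and from 0.91 to 1.45 in 143BTK-, and the difference between the lines was -0.01 ± 0.55 (SE). The probe set 211326_x_at read 43.8, 46.3 and 37.6 in A549 ρ° cells, against 8.1, 19.6 and 15 in A549 ρ+ cells, where it was too dim for a fold, and in 143BTK- its groups overlapped at 23.2, 27.6 and 24.8 in ρ° cells, against 16.7, 21.8 and 23.5 in ρ+ cells. The HFE probe sets did not move alike. Of the 11 kept in A549 all were above 0, between 0.05 and 1.67, but 7 were under 0.5 on the log2 scale. Of these 11, 2 (211326_x_at and 211863_x_at) had a ρ+ mean under the lowest mean kept and passed the filter through their ρ° arrays. The groups of 4 of the 11 did not overlap, with ρ° higher. Over all probe sets kept in A549, 15.8% were apart with ρ° higher and 16.1% with ρ° lower. Of the 10 kept in 143BTK- 9 were above 0, the last being 206086_x_at at -0.01. The groups of 4 of the 10 did not overlap, with ρ° higher, namely 206087_x_at, 211328_x_at, 211329_x_at and 211863_x_at. Over all probe sets kept in 143BTK-, 7.36% were apart with ρ° higher and 7.47% with ρ° lower. Only 206087_x_at was free of overlap in both lines among the HFE probe sets kept in both. The probe set 211331_x_at was kept in neither line, 206086_x_at not in A549, and 211330_s_at and 214647_s_at not in 143BTK-.

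**Figure D1:**
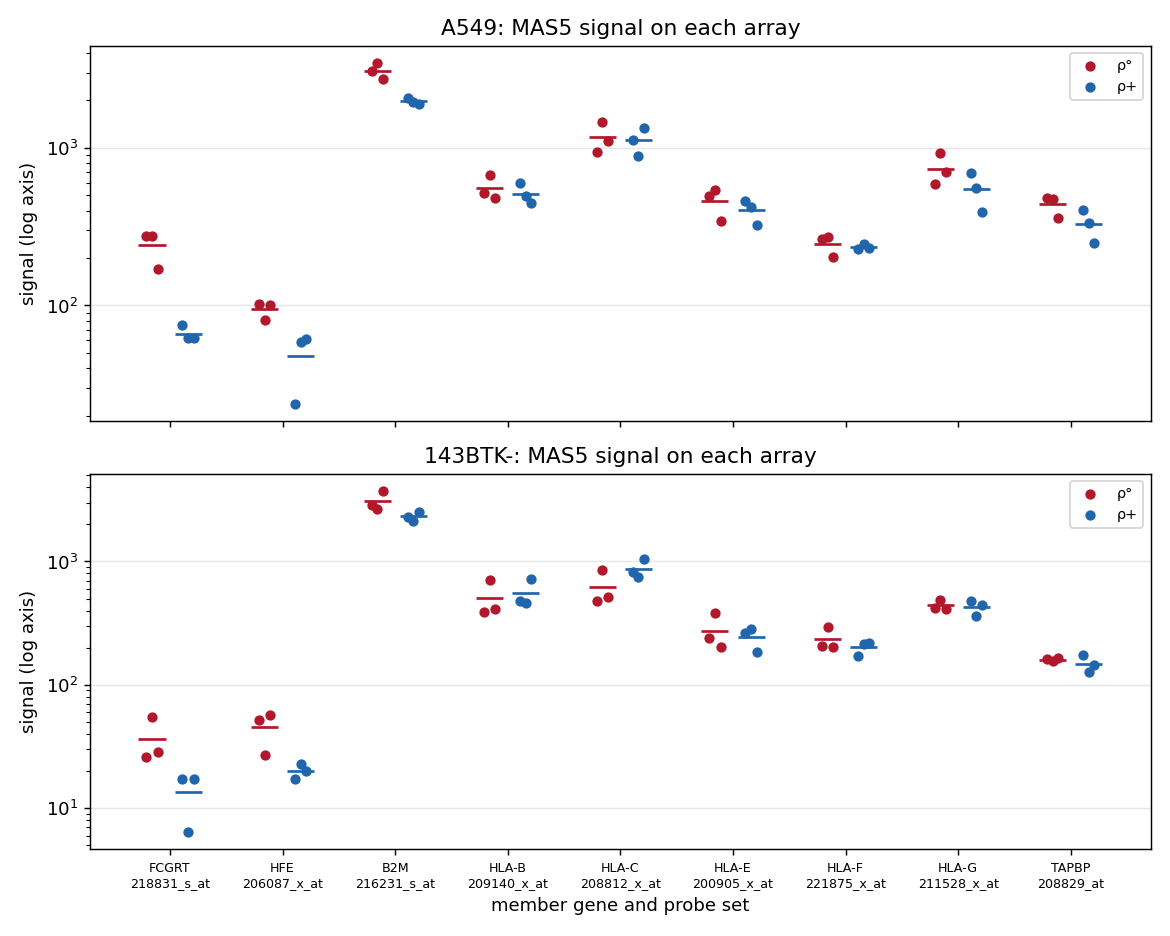
MAS5 signal (log axis) of the probe set of highest mean log2 signal of each member gene on each of the 12 arrays, taken over the 12 arrays, with A549 above and 143BTK- below, ρ° arrays (red) left of ρ+ arrays (blue), and bars for the group means. For the probe sets shown of FCGRT, HFE and B2M the red points clear the blue points in both panels, while those of the HLA genes and TAPBP overlap. This depends on the probe set drawn. That of HFE is 1 of 13, and its place rests on its ρ° arrays. Of the 16 HLA probe sets kept in A549, 5 were free of overlap and are not drawn here. The 143BTK- ρ+ mean of FCGRT, taken on the log2 scale and not as the bar drawn, is under the lowest mean kept.

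B2M encodes the light chain shared by all the heavy chains here. By 216231_s_at its signal was 3077.3, 3451.6 and 2750.5 in A549 ρ° cells, against 2067.3, 1959.1 and 1901.8 in A549 ρ+ cells, 1.56-fold higher (log2 change 0.64 ± 0.14, SE). In 143BTK- it was 2844.7, 2684.9 and 3742.2 in ρ° cells, against 2306, 2118.5 and 2523.5 in ρ+ cells, 1.32-fold higher (0.40 ± 0.16, SE). The groups were apart in both lines, and the spread over ρ° arrays was wider than over ρ+ arrays. The other probe set, 201891_s_at, read 2471, 3430.3 and 2975.8 in A549 ρ° cells, against 2214.7, 2010.6 and 1882 in A549 ρ+ cells (0.53 ± 0.15, SE). In 143BTK- it read 2750.9, 2410.4 and 2092.8 in ρ° cells, against 2092.8, 1728.2 and 1827.2 in ρ+ cells (0.36 ± 0.16, SE), where ρ° C and ρ+ A had the same value. The probe sets of B2M thus gave changes within an SE of each other in each line.

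HLA-E, which presents leader peptides of other class I chains to NK cell receptors, had 3 probe sets that differed widely. The signal of 200904_at was 120.3, 183.7 and 98.5 in A549 ρ° cells, against 26.7, 37.6 and 76.2 in A549 ρ+ cells, 3.05-fold higher (1.61 ± 0.39, SE). In 143BTK- it was 55.6, 124.4 and 38.7 in ρ° cells, against 35.7, 41.8 and 59.8 in ρ+ cells (0.53 ± 0.44, SE), with overlap. The probe sets 200905_x_at and 217456_x_at showed log2 changes of 0.18 and 0.33 in A549 and of 0.14 and 0.25 in 143BTK-, all with overlap. The size seen for HLA-E in A549 therefore rested on 1 of its 3 probe sets.

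HLA-G, a class I gene best known from the placenta, had 4 probe sets. By 210514_x_at the signal was 707.5, 585.8 and 267.6 in A549 ρ° cells, against 155.6, 142.5 and 124.2 in A549 ρ+ cells, 3.43-fold higher (1.78 ± 0.32, SE). In 143BTK- the same probe set read 169.2, 325.4 and 170.3 in ρ° cells, against 244.3, 202.2 and 199.4 in ρ+ cells (-0.02 ± 0.30, SE). The ρ° arrays of A549 lay apart from the ρ+ arrays, and those of 143BTK- did not. By 211529_x_at the signal was 566.7, 656.1 and 541.7 in A549 ρ° cells, against 395.5, 285.2 and 222.2 in A549 ρ+ cells (1.00 ± 0.23, SE), and its log2 change in 143BTK- was 0.10 ± 0.24 (SE). The remaining probe sets 211528_x_at and 211530_x_at had log2 changes of 0.45 and 0.72 in A549 and of 0.05 and -0.51 in 143BTK-, with overlap. The value of -0.51 went with a single ρ+ array, C, which read 345.2 where the others read 116.6 and 115.8.

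HLA-C, a classical class I chain that also serves as a ligand of NK cell receptors, had 3 of its 4 probe sets higher in A549 and lower in 143BTK- ρ° cells, as had HLA-G 210514_x_at and 211530_x_at and HLA-B 209140_x_at. The HLA-C probe set 216526_x_at read 919, 1267.7 and 866.9 in A549 ρ° cells, against 816.3, 709.5 and 745.5 in A549 ρ+ cells (0.41 ± 0.18, SE). In 143BTK- it read 451.5, 761.4 and 334.7 in ρ° cells, against 682.2, 566.1 and 876.2 in ρ+ cells (-0.52 ± 0.31, SE). The A549 groups were apart and the 143BTK- groups overlapped, through ρ° B alone, since ρ° A and C lay under all ρ+ arrays. By 214459_x_at the change was 0.47 ± 0.18 (SE) in A549, without overlap, and -0.58 ± 0.32 (SE) in 143BTK-, with overlap. By 208812_x_at it was 0.06 ± 0.21 (SE) in A549 and -0.53 ± 0.26 (SE) in 143BTK-. The probe set 211799_x_at had 1.37 ± 0.68 (SE) in A549, but ρ+ B read 10 there against 90.5 and 54.2 on the other ρ+ arrays, and without ρ+ B the change was 0.44. In 143BTK- it was 0.07 ± 0.36 (SE).

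HLA-B and HLA-F moved less. HLA-B, a classical chain, had log2 changes of 0.42, 0.12 and 0.49 in A549 and of 0.18, -0.16 and 0.19 in 143BTK- for 208729_x_at, 209140_x_at and 211911_x_at, all with overlap. HLA-F, a conserved chain, had 0.43 and 0.06 in A549 and 0.34 and 0.20 in 143BTK- for 204806_x_at and 221875_x_at, also with overlap. Its 221978_at was dim in both lines, was not kept in A549 and was kept in 143BTK- through its ρ° arrays. For TAPBP, 208829_at read 479.2, 474.1 and 361.3 in A549 ρ° cells, against 402.5, 331.5 and 249 in A549 ρ+ cells (0.44 ± 0.22, SE), and 160.9, 154.9 and 163.9 in 143BTK- ρ° cells, against 173.7, 128 and 144.5 in 143BTK- ρ+ cells (0.12 ± 0.23, SE). The groups overlapped in both lines, and the other TAPBP probe set was kept in neither.

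Most of these probe sets can pick up more than a single transcript. Of the 35, 26 carry the suffix _x_at, which marks probes that may bind several sequences, namely 15 of the 17 HLA heavy chain and 11 of the 13 HFE probe sets, 206087_x_at and 211326_x_at among them. The heavy chain genes are close in sequence, so a probe set named for a single gene may read other class I transcripts too, and the HLA values are uncertain as to which gene they stand for. The HFE values by _x_at probe sets are uncertain in the same way. The probe sets of B2M, FCGRT and TAPBP do not carry _x_at. Those of B2M and FCGRT end in _s_at and those of TAPBP in _at. The lack of _x_at does not show that a probe set reads a single transcript.

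**Figure D2:**
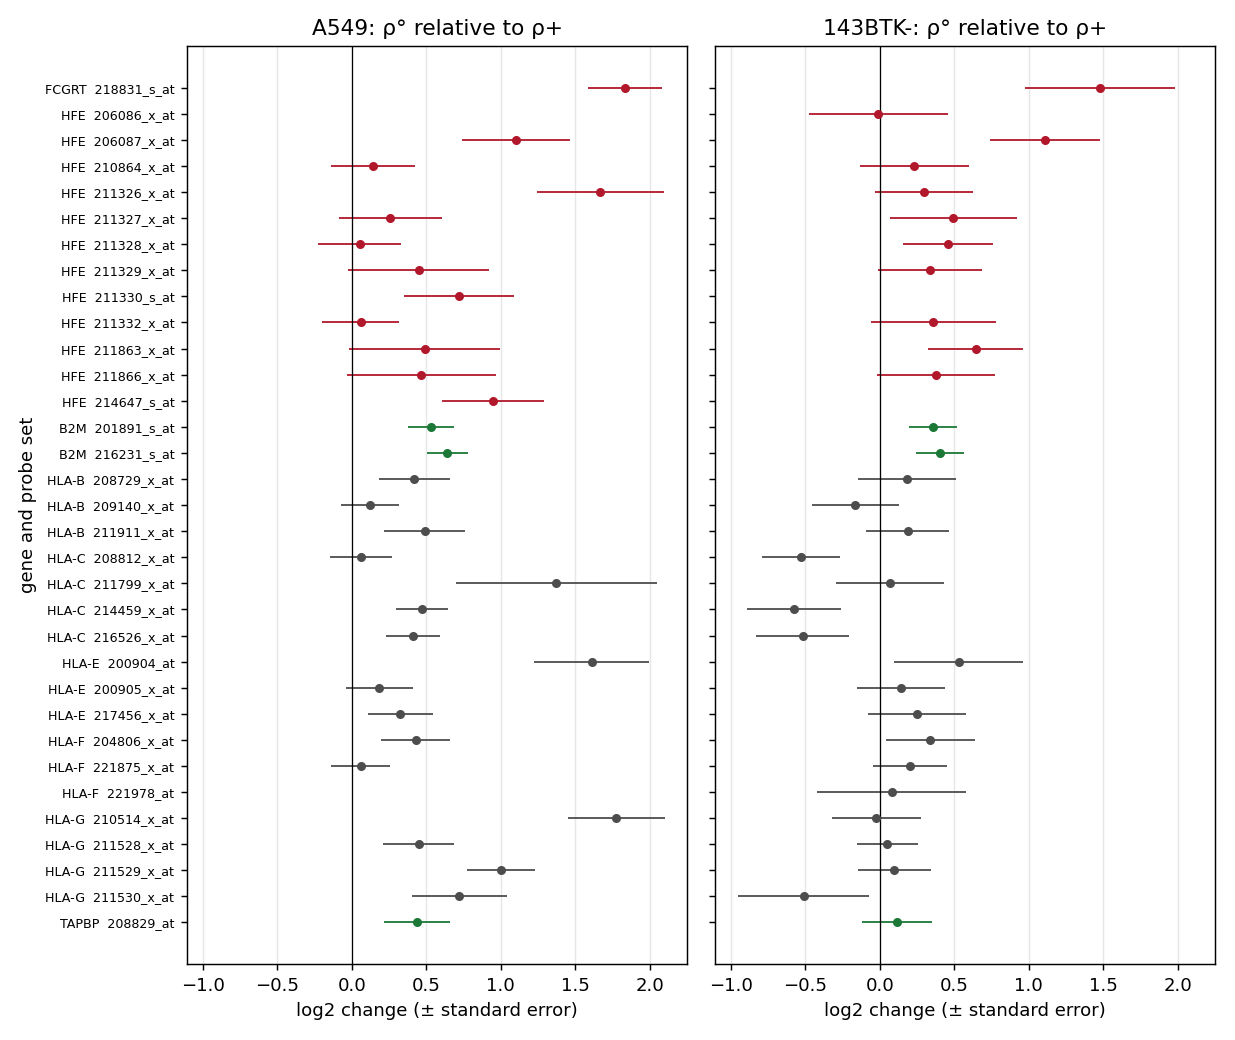
Log2 change of ρ° relative to ρ+ with its standard error for each member probe set kept in at least 1 line, A549 on the left and 143BTK- on the right (FCGRT and HFE red, B2M and TAPBP green, HLA heavy chains grey). A probe set not kept in a line has no point there. All 31 points of A549 lie right of 0, while in 143BTK- 24 of 31 do and 3 of 4 HLA-C probe sets lie between -0.58 and -0.52.

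Over the members as a whole, the median log2 change in A549 was 0.47, where the median over all 13147 probe sets kept was -0.0035, and it was above 0 for 31 of 31 members, as it was for 49.7% of all probe sets. In 143BTK- the median was 0.20, beside -0.0022 over all 14038 probe sets, and 24 of 31 members were above 0, again beside 49.7% of all. With no filter, 33 of 35 were above 0 in A549 and 27 of 35 in 143BTK-. In A549 12 members had all ρ° arrays above all ρ+ arrays, beside 15.8% of all probe sets, and 0 the reverse, beside 16.1%. In 143BTK- 6 had all ρ° arrays above, beside 7.36% of all, and 0 the reverse, beside 7.47%. With limma 6 of 31 (19.4%) were called higher in A549 at an adjusted p under 0.05, beside 5.59% of all probe sets. These were FCGRT, B2M 216231_s_at, HLA-E 200904_at, HLA-G 210514_x_at and 211529_x_at, and HFE 211326_x_at. The last had a ρ+ mean under the lowest mean kept and passed the filter through its ρ° arrays. No member was called lower, beside 5.17% of all, and at an unadjusted p under 0.05 the members counted 12 higher and 0 lower, beside 14% and 13.3% of all. In 143BTK- limma called no member, as it called no probe set at all (0%). At an unadjusted p under 0.05 the members counted 3 higher and 0 lower there, beside 3.78% and 4.6% of all probe sets. As the same values chose the genes, nothing is read from these counts.

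The A549 counts depended on single arrays. Over the 6 settings with an A549 array left out, 2 to 7 member probe sets were called higher, while 1.53% to 8.09% of all probe sets were, so that the members' count went with the overall count. The lowest shares of all probe sets were 1.53% without ρ° A, 2.3% without ρ+ B and 2.47% without ρ° B, and the members called there were 2, 3 and 2. FCGRT and HLA-G were called in each of the 6. These fits reuse the values that chose the genes, so that calls kept under them are a description and not support. Without ρ° A or without ρ° B, no other member gene was called. The setting mattered too, since with no filter, where 2.54% of all were called higher, HLA-E and HFE were not called, and without an intensity trend in limma, where 3.18% were, HLA-E and B2M were not.

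Of the 29 member probe sets kept in both lines, 23 were higher in ρ° cells of both lines and 6 were higher in A549 and lower in 143BTK-. In the fit over all 12 arrays, the mean log2 change of the lines was above 0 for 25 of 29, beside 49.4% of all 12184 probe sets, and 5 (17.2%) were called higher, beside 1.95% of all, with 0 lower, beside 1.72%. At an unadjusted p under 0.05 the counts were 8 higher and 0 lower, beside 10.5% and 10% of all. Those called were FCGRT at 1.66 ± 0.29 (SE), HFE 206087_x_at at 1.11 ± 0.27 (SE) and 211326_x_at at 0.98 ± 0.26 (SE), and B2M at 0.52 ± 0.11 (SE) and 0.44 ± 0.11 (SE). FCGRT in 143BTK- and HFE 211326_x_at in A549 had a ρ+ mean, on the log2 scale, under the lowest mean kept. They passed the filter through their ρ° arrays, so that the sizes of their mean changes are uncertain. The ρ+ means of HFE 206087_x_at, 47.6 in A549 and 20 in 143BTK-, lay within the range of the blood cell markers. As the same values chose the genes, none of the 5 calls is read as support. The difference of the change, A549 minus 143BTK-, was above 0 for 22 of 29, beside 50.5% of all. In limma no member was called in it, beside 1.03% of all probe sets called higher and 0.878% called lower, and at an unadjusted p under 0.05 the members counted 5 higher and 0 lower, beside 9.53% and 7.78% of all. The differences reached 1.80 ± 0.48 (SE) for HLA-G 210514_x_at and 1.05 ± 0.38 (SE) for HLA-C 214459_x_at, against 0.36 ± 0.57 (SE) for FCGRT and 0.17 ± 0.22 and 0.24 ± 0.21 (SE) for B2M.

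The HLA heavy chain probe sets went up and down together from array to array within a group. In 143BTK- the ρ° B array was the highest of the 3 ρ° arrays for 16 of 17 of them (94.1%), where it was the highest for 36.4% of all probe sets. Its median over the 17 lay 0.55 above the ρ+ mean on the log2 scale, while ρ° A and ρ° C lay at -0.11 and -0.24. Among the 143BTK- ρ+ arrays C was the highest for 10 of 17. In A549 ρ° B was the highest for 12 of 16 and ρ° C the lowest for 12 of 16, and ρ+ C was the lowest for 11 of 16, beside 36.1% of all probe sets. The HLA counts in 143BTK- depended on this ρ° B array. Without it, 4 of 17 HLA probe sets were above 0 in place of 11, their median was -0.12 in place of 0.08, and the members above 0 numbered 18 of 31. In A549 the HLA median was between 0.28 and 0.57 whichever array was left out. As the HLA probe sets may read shared transcripts, they are not independent measurements.

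**Figure D3:**
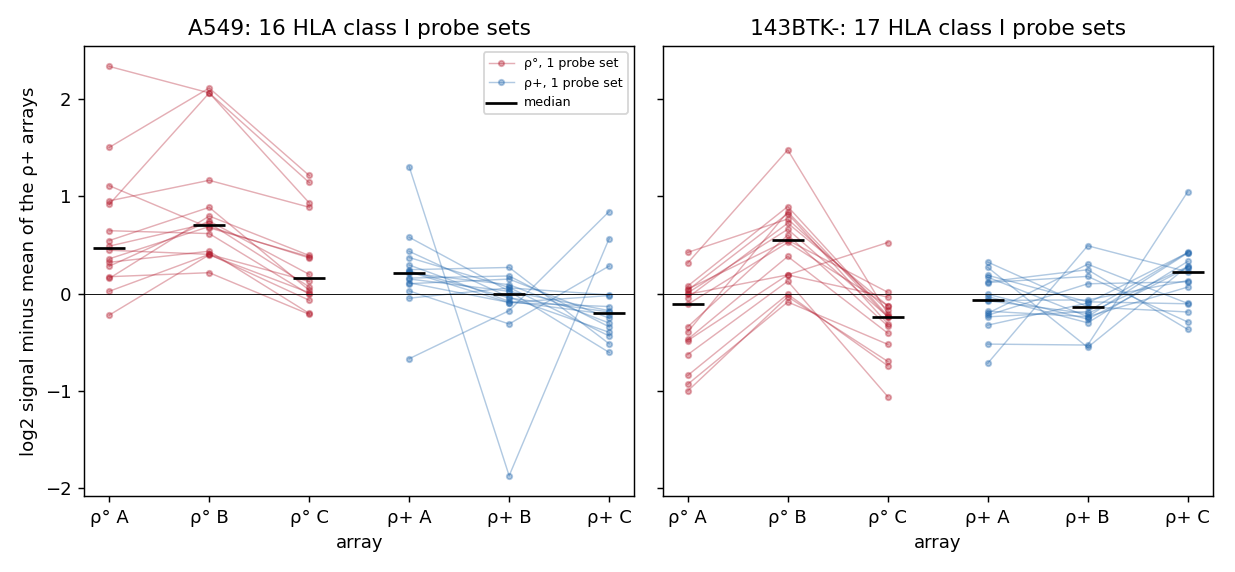
Log2 signal of each kept HLA class I probe set on each array, minus the mean of the ρ+ arrays of its line, with A549 (16 probe sets) on the left and 143BTK- (17) on the right, ρ° arrays red and ρ+ arrays blue, lines joining the values of a probe set and black bars for the median of an array. The median of 143BTK- ρ° B stands at 0.55 while ρ° A and ρ° C stand below 0.

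The members lie on 3 chromosomes. The HLA genes, TAPBP and HFE are on chromosome 6, B2M on chromosome 15 and FCGRT on chromosome 19. The other kept probe sets of chromosome 6 had a median log2 change of 0.13 in A549 and 0.03 in 143BTK-, those of chromosome 15 had -0.09 and 0.19, and those of chromosome 19 had -0.03 and 0.15. Other probe sets between HLA-F and TAPBP, the neighbours of the heavy chain genes, had a median of -0.04 in A549 (96 probe sets, 3 called higher and 2 lower) and 0.07 in 143BTK- (101, none called). After the median of the chromosome was taken off, 26 of 31 members were above 0 in A549 and 24 of 31 in 143BTK-. The changes of the A549 members also stood beside a lower level of epithelial markers. KRT19, a simple epithelial keratin, averaged 3.53 in A549 ρ° cells and 409 in A549 ρ+ cells, KRT18 averaged 3345 in ρ° and 8228 in ρ+ cells, and 4 of the 5 epithelial markers kept in A549 fell (limma adjusted p of 1.22e-05 to 0.0335), the exception being KRT7. The summed signal of the 6 epithelial markers was 4924 to 8644 on the A549 ρ° arrays and 12710 to 15400 on the A549 ρ+ arrays. In 143BTK- no epithelial marker of the 4 kept was called. Whether this shift has a part in the class I values was not tested.

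Few partners of class I in peptide supply passed the test. The list of peptide processing and loading held 25 genes, of which 21 could be tested in A549 and 22 in 143BTK-, each by its probe set of highest signal. In A549 none rose and 1 fell in limma, beside 5.59% and 5.17% of all probe sets, and at an unadjusted p under 0.05 4 were higher and 1 lower, beside 14% and 13.3%. In 143BTK- none was called (0% of all), with 1 higher and 2 lower unadjusted, beside 3.78% and 4.6%. The median log2 change of the list was 0.11 in A549 and 0.12 in 143BTK-, beside medians near 0 over all probe sets. LMAN1, a cargo receptor that carries glycoproteins from the endoplasmic reticulum towards the Golgi, was too dim on average to be tested in A549, and is named after its values were seen. Its 203293_s_at read 100.5, 27.4 and 31.2 in A549 ρ° cells, against 2.5, 2.7 and 2.9 in A549 ρ+ cells, with no overlap and a ρ+ mean too low for a fold, and with no filter it was called higher (limma adjusted p = 0.00821). Its other probe set, 203294_s_at, overlapped and was not called then (adjusted p = 0.268), and in 143BTK- 203293_s_at had -0.23 ± 0.25 (SE; adjusted p = 0.832). The gene that fell was PSMB8, an inducible subunit that gives the immunoproteasome its cleavage pattern. It read 80.2, 62.9 and 75.1 in A549 ρ° cells, against 147.7, 134.9 and 144.8 in A549 ρ+ cells (-0.98 ± 0.21, SE; limma adjusted p = 0.0195), with no overlap. It no longer passed when array A or B of the ρ° group, or A or B of the ρ+ group, was left out (adjusted p of 0.0548 to 0.0717), and over 20 alternatives the adjusted p ran from 0.0161 to 0.0717. In 143BTK- PSMB8 read 139.6, 153.7 and 132.1 in ρ° cells, against 146.7, 148.5 and 102.4 in ρ+ cells (adjusted p = 0.93).

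PSMB9, the other immunoproteasome subunit beside TAP1, had -0.48 ± 0.22 (SE) in A549 (limma adjusted p = 0.193) and 0.22 ± 0.27 in 143BTK- (0.863). TAP1 and TAP2, which form the pump that carries peptides into the endoplasmic reticulum, had -0.28 ± 0.26 (adjusted p = 0.52) and -0.06 ± 0.29 (0.916) in A549. In 143BTK- they had 0.22 ± 0.25 (0.843) and 0.14 ± 0.34 (0.941). These 4 genes stand next to each other on chromosome 6, between HLA-B and TAPBP. Each of them had a negative value in A549, where every kept probe set of the members was positive, but only that of PSMB8 passed.

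CANX encodes calnexin, the chaperone that holds new heavy chains before β2-microglobulin joins, and its probe sets disagreed. The brightest, 200068_s_at, read 2026.3, 2093.1 and 2052.9 in A549 ρ° cells, against 1814.4, 1508.5 and 2137.6 in A549 ρ+ cells (0.19 ± 0.16, SE; adjusted p = 0.466). By 208852_s_at the signal was 1148.7, 890.2 and 1023.2 in A549 ρ° cells, against 541, 341.8 and 394.8 in A549 ρ+ cells, 2.43-fold higher (1.28 ± 0.20, SE; adjusted p = 0.00493). The third probe set, 208853_s_at, was 2.94-fold higher in A549 ρ° cells (1.56 ± 0.25, SE; adjusted p = 0.00513). The last 2 were called in A549 under each of the 20 alternatives, and the first under none. In 143BTK- none of the 3 was called (adjusted p of 0.675, 0.653 and 0.879). A statement on calnexin therefore depends on which probe set is taken.

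**Figure D4:**
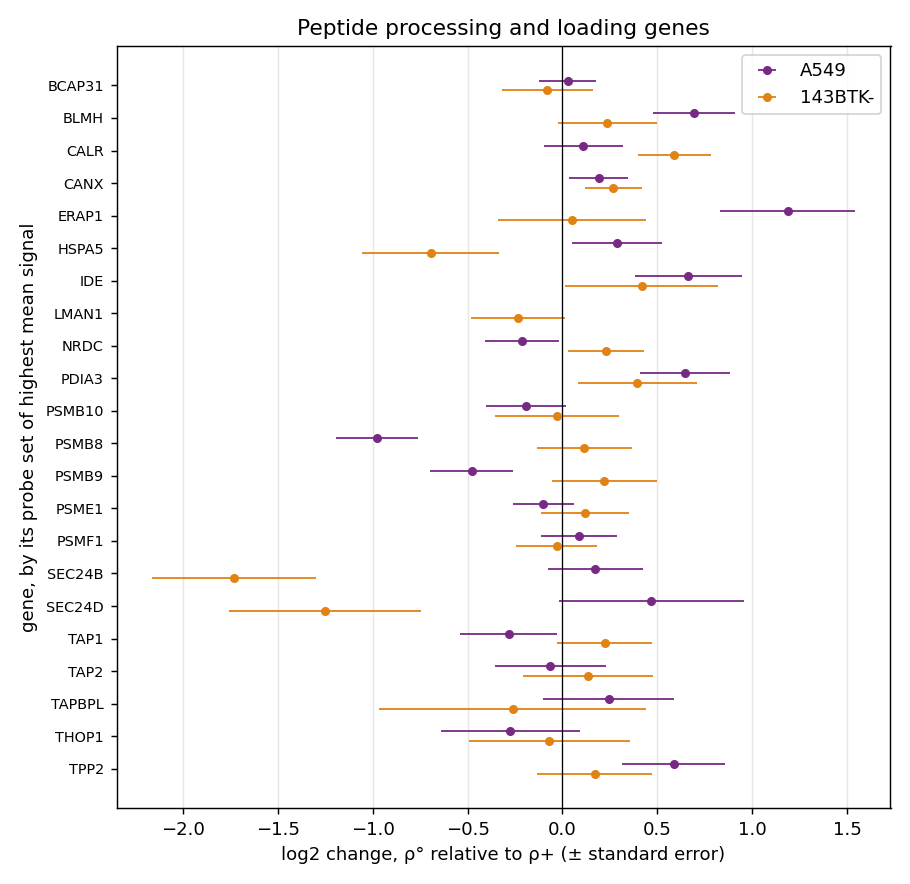
Log2 change of ρ° relative to ρ+ with its standard error for the peptide processing and loading genes tested, by the probe set of highest mean signal, A549 purple and 143BTK- orange. PSMB8 in A549, at -0.98, was the only one called.

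Regulators of class I transcription were called in neither line. Of 21 genes listed, 13 were tested in A549 and 15 in 143BTK-, and at an unadjusted p under 0.05 2 were higher and 1 lower in A549, with 0 in 143BTK-. IRF1, a factor induced by interferon that acts on class I promoters, had -0.05 ± 0.21 (SE; limma adjusted p = 0.916) in A549 and 0.18 ± 0.27 (0.889) in 143BTK-. Of 8 interferon receptor and kinase genes tested in each line, IFNGR2, the signalling chain of the interferon-γ receptor, rose in A549. It read 387.2, 321.7 and 357.2 in A549 ρ° cells, against 197.4, 202.5 and 184.7 in A549 ρ+ cells, 1.82-fold higher (0.86 ± 0.18, SE; adjusted p = 0.0162). The call was lost without ρ+ B (0.0614) and without ρ° A (0.0858). The other receptor chain, IFNGR1, had -0.62 ± 0.21 (SE; adjusted p = 0.0924). In 143BTK- IFNGR2 had -0.28 ± 0.35 (SE; adjusted p = 0.864), and no gene of the list was called, with 0 higher and 1 lower at an unadjusted p under 0.05.

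No class I-like gene outside the members passed the test. Of the 8 tested in A549, which include the stress ligands MICA and MICB and the endothelial protein C receptor PROCR, 2 were above 0 and none was called, with none at an unadjusted p under 0.05. Of the 7 tested in 143BTK- 1 was above 0 and none was called, with 1 lower unadjusted. Among the partners of HFE, TFRC, the transferrin receptor that HFE binds, had -0.74 ± 0.29 and -0.76 ± 0.25 (SE) by its 2 probe sets in A549 (limma adjusted p = 0.137 and 0.0841), and -0.25 ± 0.27 and -0.03 ± 0.35 in 143BTK- (0.828 and 0.991). Class II genes were mostly dim, with 5 of 10 tested in each line. HLA-DMB, which helps load class II molecules, fell in A549, reading 44.8, 48.1 and 41.2 in ρ° cells, against 86.6, 100.8 and 136.2 in ρ+ cells (-1.25 ± 0.25, SE; adjusted p = 0.0142). The call was lost without ρ+ B (0.0534) and without ρ° A (0.0594), and in 143BTK- its change was 0.01 ± 0.28 (adjusted p = 0.999). No listed gene was called in the difference between the lines in the main fit, and 7 were higher and 2 lower there at an unadjusted p under 0.05. With no filter LMAN1 was called (limma adjusted p = 0.00591), and without the 143BTK- ρ° B array 1 listed gene was. The CANX probe set 208852_s_at, not the brightest of its gene, was called without A549 ρ+ A (limma adjusted p = 0.0468).

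Over the 12 arrays, each line centred on its own mean, the probe sets most like FCGRT were those of IMPACT (Pearson r = 0.965), HDAC5 (0.950) and POLR1D (0.946). For HFE 206087_x_at they were RETREG2 (0.946), SUB1 (0.929) and PIGQ (0.927), and for B2M 216231_s_at CCDC90B (0.937), NAP1L1 (0.936) and ADRA2B (0.926). Each was the highest of at least 10807 probe sets compared, over arrays that share the ρ° and ρ+ grouping, and the r values are a description only.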

How the data were processed

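Total RNA of ρ° and ρ+ cells was measured on 12 Affymetrix arrays. Per the methods, the authors computed MAS5 intensity values with Microarray Suite (MAS 5.0) and applied quantile normalization in R within each line (6 arrays), and the deposited intensity was used as it stands. No column of values was left out. Probe sets were kept by mean log2 signal, the brightest 59% in A549 and 63% in 143BTK-, the shares that the authors' filter on Absent calls left. Log2 signals were compared with limma 3.58.1 in R 4.3.3 (lmFit, eBayes with an intensity trend, two-sided, Benjamini-Hochberg over all probe sets kept, threshold 0.05), in each line and over 12 arrays for the mean and the difference. The authors' test, plgem, was not run. A change is log2 of ρ° over ρ+, and a fold is left out where a group mean on the log2 scale lay under the lowest mean kept.

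The members and gene lists were chosen with earlier results of these data known. Every member probe set is accounted for. Of the lists, each gene that passed is named, with TAP1, TAP2, PSMB8, PSMB9, IRF1 and TFRC in any case. Of the 19071 probe sets with a single gene, 19059 matched the RefSeq table (GRCh38.p14), used for names, chromosomes and gene order. Genes of like pattern were the 3 of highest r. The fits were tested on simulated data. Alternatives were other scalings, 16 or 64 added before log2, other filters, no trend, the replicate letter as a block, a second probe set, chromosome centring and each array left out. Figures used matplotlib 3.10.9 in Python 3.11.15.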

Additional observations from a re-analysis of the deposited data

How the results depend on the processing

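No member's change that was called turned its sign under any alternative run, which is a description only, as the same values chose the genes. Of the member values under the alternatives, 1261 moved by less than the replicate spread and 14 by more, 12 of them with 16 or 64 added before log2, where dim probe sets give smaller changes: FCGRT in 143BTK- had 0.81 and 0.37. The median member change ran from 0.40 to 0.59 in A549 and from 0.05 to 0.30 in 143BTK- with an array left out. With an array left out, 424 to 1917 probe sets were called in A549, 110 to 5.5e+02 (rounded) in the mean change and 0 in 143BTK- each time. The processing and loading genes called were then 0 to 5 in A549 and 0 to 1 in the mean change, and listed genes in the difference 0 to 1. Without an intensity trend 766 probe sets were called in A549 and 232 in the mean change, where 1415 and 447 were called with it. Processing and loading genes called in A549 were 2 in place of 1 with 16 added, with 64 added, with no filter, with a mean signal of at least 100 and with the second probe set. In the mean change they were 1 in place of 0 with no filter and with the second probe set, and with no filter 1 listed gene, LMAN1, was called in the difference. Replicate letters are shared between groups, and the correlation of same-letter deviations was 0.05 to 0.10 in A549 and -0.10 to 0.36 in 143BTK-. In A549 each ρ° array correlated best with the ρ+ array of its own letter, and in 143BTK- only A did. The labels do not say that letters pair arrays, and they were not taken as pairs, though a shared batch by letter is not excluded. With the replicate block 1441 probe sets were called in A549, 1 in 143BTK- and 345 in the mean change.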
